A study of Mus musculus with 60 samples.

Results

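The genes described here are the 10 that run the passage from G1 into S phase: the D-type cyclins Ccnd1, Ccnd2 and Ccnd3, the E-type cyclins Ccne1 and Ccne2, the kinases Cdk2, Cdk4 and Cdk6, the retinoblastoma gene Rb1 and the transcription factor gene E2f1. They were found by their symbols in the gene annotation, as 10 of the 56980 genes in the count tables, and all 10 were expressed well enough to be tested in both tables.

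The study asked what the first days of induced reprogramming, and inhibitors of TGFb signaling, do to fibroblasts of the Ercc1 mouse, a model of DNA repair deficiency and premature aging. RNA was measured in 60 libraries of cultured mouse fibroblasts, in 20 groups with 3 libraries each. Cells were kept at 3% oxygen for few passages, and polyadenylated RNA was sequenced.

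In the reprogramming table (36 libraries, 12 groups), D/KO cells were labelled 4FJ_ERCC1_(d/-), with 1 truncated and 1 null Ercc1 allele, and came from a male mouse of 8 weeks. The WT cells of that table carried an Oct4-GFP reporter beside the reprogramming cassette and came from a female mouse of 22 weeks. Both lines carried a doxycycline-inducible cassette of Oct4, Sox2, Klf4 and Myc and were sampled before and on days 2 and 4 of doxycycline at 2 µg/ml. The study names a C57BL6J and FVB hybrid background for its Ercc1 mice, and the 4Fj mouse as source of the D/KO cassette. For WT cells with the reporter it cites another cassette mouse and names no background. It also writes 4FJ for those cells, so whether the cassettes were the same is not clear. Some cultures also received VC, which is ascorbic acid (50 µg/ml) and the GSK3 inhibitor CHIR99021 (3 µM). Day 0 cells had no doxycycline. The inhibitor table (24 libraries, 8 groups) held D/KO cells of a female mouse of 4 weeks, labelled ERCC1(d/-), as controls or after 3 days with Repsox (0.1 µM), Vactosertib (0.1 µM), A83-01 (1 µM) or DMH-1 (1 µM). Repsox, Vactosertib and A83-01 inhibit the type I TGFb receptor ALK5 and DMH-1 the type I BMP receptor ALK2; the study names Vactosertib as acting on both. It also held ERCC1(+/+) control cells of a female mouse of 14 weeks, from tail tip and from skin, and a group labelled WT 4F TGFB, from tail tips of a female mouse of 22 weeks with the cassette and the reporter. Each line appears to stand for 1 mouse, so genotype, age and line cannot be told apart in any comparison of D/KO with WT. In the reprogramming table neither can sex, nor any difference in cassette or background. The truncated Ercc1 allele is still transcribed, so Ercc1 counts over the whole gene do not check the genotype; they ran in the reprogramming table from 8.03 to 18.6 CPM for D/KO (18 libraries) and from 16.8 to 29.1 CPM for WT (18 libraries).

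D-type cyclins bind Cdk4 or Cdk6 in response to growth signals and phosphorylate the retinoblastoma protein, which otherwise holds E2F transcription factors inactive. Freed E2F switches on the genes of DNA replication and also cyclin E, which joins Cdk2 to complete the phosphorylation and start S phase. In fibroblasts Ccnd1 is the D-type cyclin most tied to mitogens, adhesion and Wnt signaling, and cyclin amounts also depend on protein turnover, which RNA counts do not read.

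Each reprogramming library held 16538374 to 18484951 counts and each inhibitor library 17102639 to 30599138. Levels are given as CPM (each library's counts scaled to a common total) after TMM scaling, and as RPKM (CPM per kilobase of the deposited gene length) where genes are compared. Differences are log2 fold changes ± SE, tested two-sided across all genes by the quasi-likelihood F-test of edgeR and called at a Benjamini-Hochberg adjusted p below 0.05. Within groups the variance between 2 libraries was 3.25 to 60.3 times counting noise in the reprogramming table, and Ccne2, read from as few as 14 counts, had the largest SEs of the 10 genes there. Of the inhibitor libraries, 3 stood apart from the others of their group, namely WT skin replicate 1, Repsox replicate 2 and WT tail tip replicate 2. Nothing in the sources says that the replicates of a group were separate cultures or animals, so p-values measure only the spread between these libraries, which may be technical. In such bulk samples, fewer cells of a type and less RNA per cell cannot be told apart. Fibroblast markers (10 of 10 detected) summed to 36810 CPM or more in every reprogramming library. The 4 endothelial markers, all detected at day 0, summed to 512 to 599 CPM in D/KO and 14.4 to 17.2 CPM in WT cells. The 6 keratinocyte markers summed to 4.82 to 6.41 CPM in D/KO cells at day 0 plus VC, with 3 of them at 0, to 293 to 430 CPM at day 4 plus VC and to 14.8 to 15.96 CPM in WT cells at that time.

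Per length, Ccnd1, Ccnd2 and Cdk4 were the most abundant of the 10 in the reprogramming table. Over the 12 group means, Ccnd1 ran from 79.2 to 435 RPKM, Ccnd2 from 59.4 to 139 RPKM and Cdk4 from 35.9 to 66.5 RPKM. Ccnd3 (12.4 to 34.5 RPKM), E2f1 (10.7 to 19.8 RPKM) and Ccne1 (3.29 to 13.6 RPKM) were lower, and Cdk6, Rb1, Cdk2 and Ccne2 stayed at or below 5.99 RPKM in every group. Ccne2 was the least abundant, from 0.471 to 2.77 RPKM.

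The set of RefSeq promoters used here held 6 of the 10 genes, Ccnd3, Ccne1, Cdk2, Cdk4, Cdk6 and E2f1. It had no entry for Ccnd1, Ccnd2, Ccne2 and Rb1, whose promoters were not searched. The window runs from 250 bases before to 50 bases after the annotated start. It was searched on both strands for E2F words (TTTCCCGC, TTTCGCGC, TTTGCCGC and TTTGGCGC), for TCF/LEF words (CTTTGAA or else CTTTGAT), which mark Wnt-responsive sites, and for the E-box CACGTG that Myc can bind. Myc is one of the induced factors, and CHIR99021 activates Wnt signaling. An E2F word was present in 2.26% of 32851 mouse promoters, a TCF/LEF word in 8.65% and the E-box in 7.15%. Of the stretches of 150 bases just before the start that these windows held, those of Cdk2 and Cdk4 contained words and are shown. The words are in capitals, and the gene's strand is read from 5′ to 3′. Both stretches are from RefSeq on GRCm38.p6 and were found once in GRCm39. They lie at chr10:128540921-128541070 on the minus strand for Cdk2 and chr10:126899253-126899402 on the plus strand for Cdk4.
Cdk2: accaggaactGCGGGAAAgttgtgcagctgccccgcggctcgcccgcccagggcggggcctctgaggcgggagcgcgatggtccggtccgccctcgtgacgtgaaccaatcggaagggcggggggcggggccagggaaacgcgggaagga
Cdk4: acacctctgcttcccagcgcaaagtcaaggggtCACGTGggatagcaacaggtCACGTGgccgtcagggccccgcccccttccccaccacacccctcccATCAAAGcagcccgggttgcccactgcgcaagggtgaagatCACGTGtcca
The Cdk2 window held 1 E2F word. Counted from the RefSeq start, which for Cdk4 lies 1 base beyond the start at which the stretch shown ends, the Cdk4 window held E-boxes at -172, -118, -98 and -11 and a TCF/LEF word at -52, and Cdk6 had 1 E-box at -220. No word searched for was found in the windows of E2f1, Ccne1 and Ccnd3. These matches describe letters only and were not related to binding.

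Ccnd1, on chromosome 7 from 144483668 to 144493662 (minus strand, GRCm39), encodes cyclin D1 and had the largest log2 fold change of the 10 genes in each of the 8 comparisons with day 0. In D/KO cells its 3 libraries read 469, 472 and 507 CPM at day 0, 1865, 1826 and 1815 CPM at day 2, and 2149.8, 2012 and 1989.6 CPM at day 4. With VC the same cells read 358, 471 and 291 CPM at day 0, 1631, 1709.8 and 1616 CPM at day 2, and 1502, 1549.8 and 1495 CPM at day 4. All reprogrammed D/KO libraries lay above all D/KO day 0 libraries, and at day 4 those with VC lay below those without. WT cells started at 404, 391 and 399 CPM and read 755, 628 and 801 CPM at day 2 and 925, 899.9 and 918 CPM at day 4. With VC, WT cells read 319.8, 405 and 407 CPM at day 0, 1021, 1011 and 1235 CPM at day 2, and 1197, 1082 and 1151 CPM at day 4. Here too the reprogrammed and the day 0 libraries did not overlap, and the levels reached were below those of D/KO cells at the same time and medium.

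The log2 fold change of Ccnd1 from day 0 in D/KO cells was 1.93 ± 0.12 on day 2 (edgeR adjusted p = 2.93e-15), 2.09 ± 0.12 on day 4 (edgeR adjusted p = 1.6e-16), and with VC 2.15 ± 0.12 and 2.02 ± 0.12, or 3.80 to 4.43-fold. In WT cells it was 0.87 ± 0.12 on day 2 (edgeR adjusted p = 1.18e-06), 1.20 ± 0.12 on day 4, and with VC 1.53 ± 0.12 and 1.60 ± 0.12, or 1.83 to 3.03-fold. Ccnd1 thus rose in all 8 comparisons with day 0, and each of these calls was kept when any 1 library was left out. Ordered by mean level, D/KO day 4 (2050 CPM) and D/KO day 2 (1835 CPM) came first, then D/KO day 2 plus VC, D/KO day 4 plus VC, WT day 4 plus VC, WT day 2 plus VC, WT day 4 and WT day 2 (728 CPM). The libraries of WT day 4 plus VC and WT day 2 plus VC overlapped in that order, as did those of the 3 lowest groups, WT day 0, WT day 0 plus VC and D/KO day 0 plus VC.

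**Figure D1:**
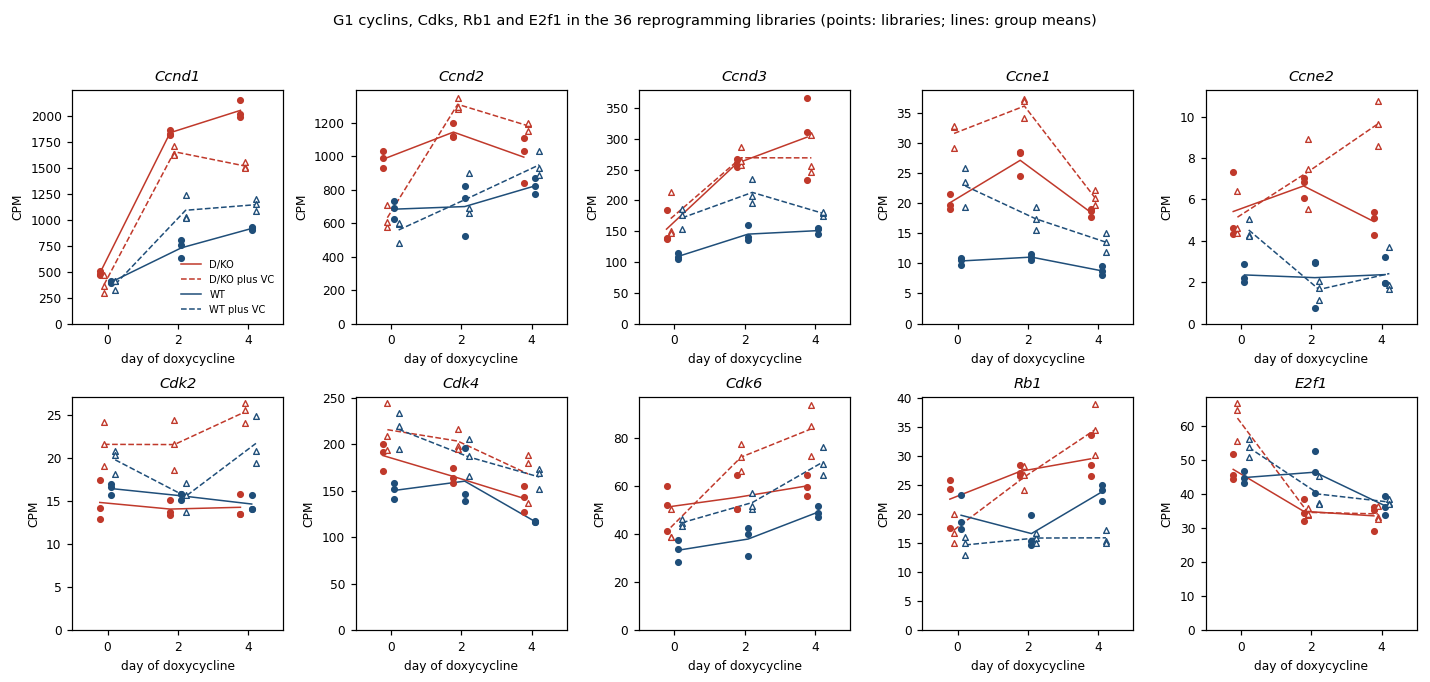
Level of each of the 10 genes (CPM, linear axis from 0) by day of doxycycline (0, 2 and 4) in the 36 reprogramming libraries. Points are libraries (3 per group; open triangles plus VC), red is D/KO, blue is WT and lines join group means (dashed plus VC). Ccnd1 rises from 291 to 507 CPM at day 0 to as much as 2149.8 CPM in D/KO cells, and E2f1 is lower at day 4 than at day 0 in every series.

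The rise of Ccnd1 was larger in D/KO than in WT cells. The difference between the log2 changes was 1.06 ± 0.16 on day 2 (edgeR adjusted p = 3.74e-05), 0.89 ± 0.16 on day 4 (edgeR adjusted p = 0.000183) and 0.62 ± 0.16 on day 2 plus VC (edgeR adjusted p = 0.00884). At day 4 plus VC it was 0.42 ± 0.16 (edgeR adjusted p = 0.0499), and that call was lost, with adjusted p from 0.0513 to 0.203, without any 1 of 10 of its 12 libraries, all but D/KO day 0 plus VC replicate 2 and WT day 0 plus VC replicate 1. Set against day 0 without VC, the differences with VC were 0.32 on day 2 (edgeR adjusted p = 0.173) and 0.13 on day 4 (edgeR adjusted p = 0.65), so neither passed the test against that baseline. With only the groups compared the day 2 plus VC difference was not called either (edgeR adjusted p = 0.0551). VC itself lowered Ccnd1 on day 4 in D/KO cells (log2 fold change -0.44 ± 0.12, edgeR adjusted p = 0.00326) and raised it on day 2 in WT cells (0.58 ± 0.12, edgeR adjusted p = 0.000252). It was also called lower with VC on day 0 in D/KO cells (-0.37, edgeR adjusted p = 0.0158). In WT cells on day 4 it was called higher (0.32, edgeR adjusted p = 0.0413). The D/KO day 0 call was lost without 3 of its 6 libraries, and the WT day 4 call without any 1 of its 6. Whether VC acted differently in the lines was not tested. In the annotation, 23.4% of the exon bases of Ccnd1 overlap the gene LTO1 on the other strand. The strand setting of the counting is not stated, so reads of Ccnd1 and LTO1 cannot be told apart there.

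Ccnd2 (chromosome 6, 127102125 to 127129156, minus strand), cyclin D2, was about as abundant as Ccnd1 at day 0 and rose mainly with VC. In D/KO cells plus VC it read 579, 710.2 and 609 CPM at day 0, 1351, 1285 and 1297 CPM at day 2 and 1193, 1154 and 1199 CPM at day 4, with no overlap between day 0 and later days. Its log2 fold change there was 1.05 ± 0.13 on day 2 (edgeR adjusted p = 1.77e-08) and 0.90 ± 0.13 on day 4 (edgeR adjusted p = 2.5e-07). Without VC the D/KO values were 0.22 ± 0.13 at day 2 and 0.02 ± 0.13 at day 4, and neither passed the test. VC alone had lowered Ccnd2 on day 0 in D/KO cells, from a mean of 982 to 633 CPM (log2 fold change -0.63 ± 0.13, edgeR adjusted p = 0.000221), and against day 0 without VC the D/KO value on day 4 plus VC was 0.27 (edgeR adjusted p = 0.0786). WT cells plus VC had log2 fold changes of 0.43 ± 0.13 on day 2 and 0.76 ± 0.13 on day 4 (edgeR adjusted p = 7.96e-06). Against day 0 without VC the former was 0.14 (edgeR adjusted p = 0.429). It was also lost without WT day 0 plus VC replicate 1 (edgeR adjusted p = 0.0869) or WT day 2 plus VC replicate 3 (edgeR adjusted p = 0.148).

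Ccnd3 (chromosome 17, 47815976 to 47910616, plus strand), cyclin D3, rose in all 4 D/KO comparisons. D/KO libraries read 138, 137 and 185 CPM at day 0, 254, 260.1 and 267 CPM at day 2 and 310.5, 366 and 233 CPM at day 4. The day 0 libraries lay below the others, while the day 4 libraries spread on both sides of day 2. The log2 fold change was 0.76 ± 0.13 on day 2 (edgeR adjusted p = 2.57e-05) and 0.98 ± 0.13 on day 4 (edgeR adjusted p = 1.8e-07), and 0.66 ± 0.13 at both days plus VC. In WT cells it was 0.42 ± 0.13 on day 2 and 0.47 ± 0.13 on day 4 (edgeR adjusted p = 0.00814), with 0.31 and 0.06 plus VC, which did not pass. The WT day 2 call was lost without WT day 0 replicate 1, 2 or 3 or WT day 2 replicate 2 (edgeR adjusted p from 0.0732 to 0.207).

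Because Ccnd1 rose more than its relatives, the makeup of the D-type cyclin RNA shifted. Of the summed RPKM of the 3 genes, Ccnd1 held 45.7% ± 1.46 (SD, n = 3) in D/KO cells at day 0, 72.0% ± 0.953 at day 2 and 75.6% ± 1.03 at day 4. WT cells went from 49.9% ± 1.37 to 63.1% ± 1.08 and 65.0% ± 0.864. With VC the shares at day 0, 2 and 4 were 47.4%, 67.4% and 67.3% in D/KO and 50.3%, 69.0% and 66.7% in WT cells. Within each of the 4 series the day 0 shares did not overlap those of later days.

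**Figure D2:**
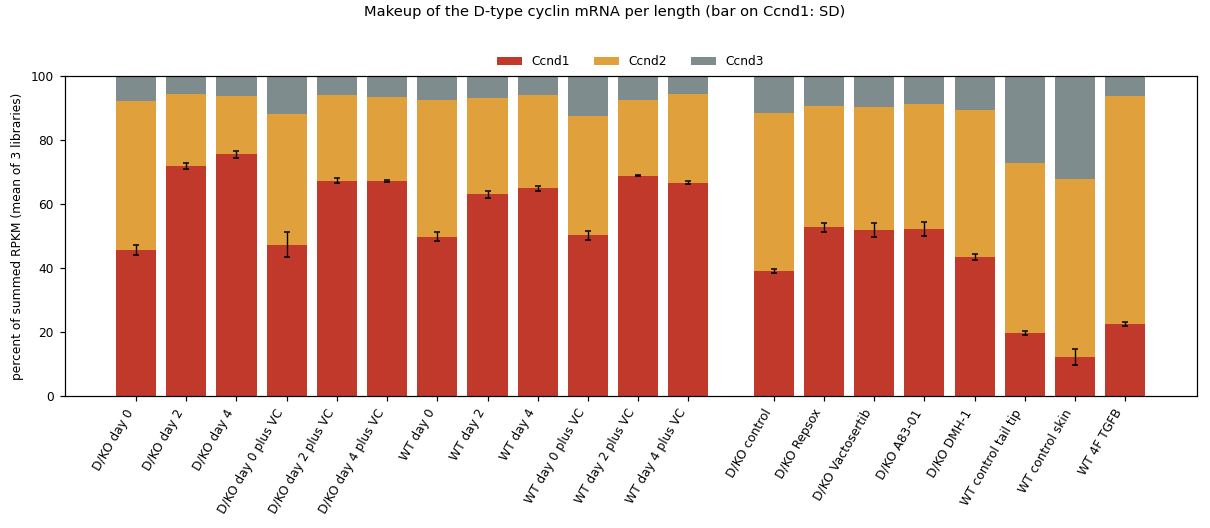
Stacked bars of the percent of the summed RPKM of Ccnd1, Ccnd2 and Ccnd3 held by each gene (mean of 3 libraries; error bar, SD of the Ccnd1 share) in the 20 groups of both tables. The Ccnd1 share rises from 45.7% to 75.6% in D/KO cells over 4 days, and is 12.4% in WT skin cells and 22.6% in the WT 4F TGFB group.

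Ccne1 (chromosome 7, 37797409 to 37806959, minus strand), cyclin E1, had its highest levels with VC and fell from day 2 to day 4. D/KO libraries read 19.7, 18.9 and 21.5 CPM at day 0, 28.3, 28.4 and 24.5 CPM at day 2 and 17.7, 19.0 and 18.7 CPM at day 4. With VC they read 29.2, 32.6 and 32.8 CPM, then 34.1, 37.2 and 36.9 CPM, then 19.7, 20.8 and 22.2 CPM. Day 2 stood above both other days in each of these series, without overlap, but with VC the rise from day 0 to day 2 did not pass the test. The log2 change from day 0 was 0.43 ± 0.11 on day 2 (edgeR adjusted p = 0.00338) and -0.59 ± 0.11 on day 4 plus VC (edgeR adjusted p = 3.32e-05), and from day 2 to day 4 it was -0.55 ± 0.11 without and -0.79 ± 0.11 with VC.

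WT cells held less Ccne1, at 10.5, 10.9 and 9.70 CPM at day 0, 10.5, 11.5 and 11.1 CPM at day 2 and 8.64, 8.10 and 9.49 CPM at day 4. Their VC series read 23.4, 19.3 and 25.7 CPM, then 19.4, 15.5 and 17.3 CPM, then 11.9, 15.02 and 13.5 CPM. VC alone on day 0 raised Ccne1 in WT cells by a log2 fold change of 1.14 ± 0.12 (edgeR adjusted p = 1.71e-09) and in D/KO cells by 0.65 ± 0.11 (edgeR adjusted p = 2.7e-05). Of the 6 comparisons of VC with no VC, 5 called Ccne1 higher, and each of the 5 held when any 1 library was left out. In WT cells plus VC, Ccne1 then fell by 0.76 on the log2 scale by day 4 (SE 0.12, edgeR adjusted p = 1.71e-06). Set against day 0 without VC instead, the day 4 plus VC level was higher by 0.38 in WT cells and 0.06 in D/KO cells, so these directions turned with the baseline. The fall from day 2 to day 4 in WT cells (-0.33 without and -0.36 with VC) was lost without WT day 2 replicate 2 or 3 or WT day 4 replicate 1, 2 or 3 (edgeR adjusted p from 0.0539 to 0.184), and with VC without WT day 2 plus VC replicate 1 or 3 or WT day 4 plus VC replicate 1 or 3 (0.0528 to 0.166). Both were also lost with library totals, no filter or only the groups compared, and the one without VC in DESeq2 and with its size factors. With library totals the D/KO fall by day 4 plus VC was -0.22 (edgeR adjusted p = 0.0799).

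Ccne2 (chromosome 4, 11191351 to 11204779, plus strand), cyclin E2, was read from few counts and, with VC, moved in opposite directions from day 0 in the lines. In D/KO cells plus VC it read 4.40, 6.40 and 4.63 CPM at day 0, 5.56, 8.94 and 7.50 CPM at day 2 and 10.8, 9.63 and 8.58 CPM at day 4. In WT cells plus VC it read 4.29, 4.24 and 5.04 CPM at day 0, 1.72, 1.15 and 2.07 CPM at day 2 and 3.72, 1.86 and 1.67 CPM at day 4. The D/KO libraries at day 4 lay above those of day 0, with 1 of them below the highest of day 2, and the WT libraries at day 2 and day 4 lay below those of their day 0. Ccne2 rose in D/KO cells on day 4 plus VC (log2 fold change 0.91 ± 0.29, edgeR adjusted p = 0.00852) and fell in WT cells on day 2 plus VC (-1.46 ± 0.34, edgeR adjusted p = 0.000954). The difference between the lines was 1.98 ± 0.45 on day 2 plus VC (edgeR adjusted p = 0.00206) and 1.82 ± 0.43 on day 4 plus VC (edgeR adjusted p = 0.00152), and both calls were kept without any 1 library. Set against day 0 without VC, the WT value was -0.52 on day 2 plus VC and 0.03 on day 4 plus VC, and neither passed. Against the same baseline the differences between the lines were 0.96 (edgeR adjusted p = 0.142) and 0.80 (edgeR adjusted p = 0.21), which did not pass. VC had raised Ccne2 in WT cells on day 0 (0.94 ± 0.32). That call was lost without WT day 0 replicate 1 or 2 or WT day 0 plus VC replicate 3 (0.0737 to 0.092), and with library totals (0.64, edgeR adjusted p = 0.102). The WT value on day 4 plus VC, -0.91, was called at 0.0199 and lost with library totals in place of TMM (0.0939) and without WT day 0 plus VC replicate 3 (edgeR adjusted p = 0.0685) or WT day 4 plus VC replicate 2 (0.0987) or 3 (0.119).

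**Figure D3:**
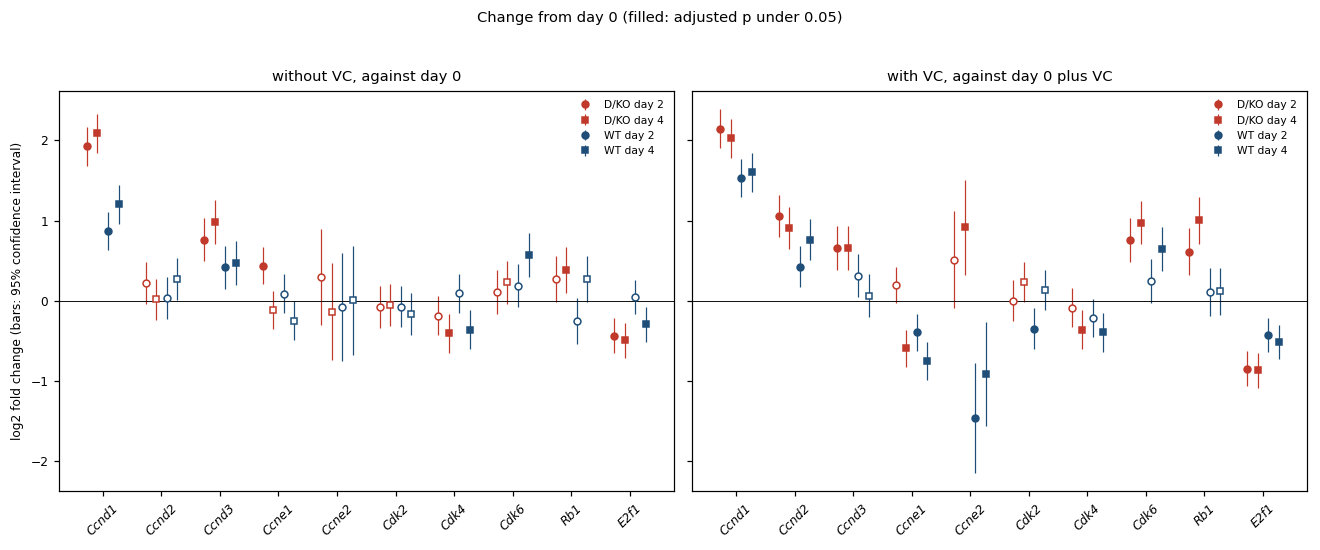
Log2 fold change of each gene from day 0 of the same line and medium (points; bars, 95% confidence interval from edgeR; circles day 2, squares day 4), with D/KO in red and WT in blue, in 2 panels without and with VC; filled points passed adjusted p under 0.05. Ccnd1 lies highest in both lines, between 0.87 and 2.15, and Ccne2 splits between the lines with VC.

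Of the kinases, Cdk2 (chromosome 10, 128533808 to 128540900, minus strand), the partner of cyclin E, differed with VC more often than with doxycycline, being called in 4 of 6 comparisons of VC with no VC and in 1 of 8 with day 0. Without VC, D/KO cells read 17.5, 12.9 and 14.2 CPM at day 0 and 13.6, 15.8 and 13.5 CPM at day 4, and the 2 days overlapped. With VC they read 19.1, 24.2 and 21.6 CPM at day 0 and 25.6, 24.1 and 26.5 CPM at day 4. The log2 effect of VC in D/KO cells was 0.54 ± 0.13 on day 0 (edgeR adjusted p = 0.00139), 0.62 ± 0.13 on day 2 (edgeR adjusted p = 0.000319) and 0.83 ± 0.13 on day 4 (edgeR adjusted p = 2.3e-06). In WT cells it was 0.57 ± 0.13 on day 4 (edgeR adjusted p = 0.000847) and 0.27 on day 0 and -0.01 on day 2, which did not pass. These 4 calls were kept without any 1 library. The 1 call against day 0 was in WT cells on day 2 plus VC (log2 fold change -0.35 ± 0.13, edgeR adjusted p = 0.0378), and it was lost without WT day 0 plus VC replicate 2 or 3 or WT day 2 plus VC replicate 2 or 3 (0.0768 to 0.191). Library totals (edgeR adjusted p = 0.186), no filter (0.173), only the groups compared (0.0732) and day 0 without VC as baseline (0.653) also ended it.

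Cdk4 (chromosome 10, 126899403 to 126903789, plus strand), the most abundant of the 3 kinases, was lower at day 4 of all 4 series. Its means went from 188 to 142 CPM in D/KO and from 150.2 to 117 CPM in WT cells, and with VC from 216 to 168 CPM and from 216 to 165 CPM. The log2 fold changes were -0.41 ± 0.12, -0.36 ± 0.12, -0.36 ± 0.12 and -0.39 ± 0.12 in that order, with edgeR adjusted p from 0.00652 to 0.0231. None of these 4 calls held in every fit without 1 library. They were lost without D/KO day 4 replicate 3 (edgeR adjusted p = 0.0524), without WT day 0 replicate 1 or 2 or WT day 4 replicate 1, 2 or 3 (0.065 to 0.107), without D/KO day 0 plus VC replicate 2 or day 4 plus VC replicate 1 (0.0911 and 0.145), and without WT day 4 plus VC replicate 1 (0.0507). Scaled by library totals alone, the D/KO value with VC was 0.01, and against day 0 without VC the WT value with VC was 0.13, both with the sign turned. Against that baseline the D/KO value with VC was -0.16 (edgeR adjusted p = 0.269), no longer called. In WT cells VC raised Cdk4, by 0.52 ± 0.12 at day 0 and 0.50 ± 0.12 at day 4 on the log2 scale, and the day 0 call was lost with library totals, at 0.23 (edgeR adjusted p = 0.105). The D/KO call without VC was lost with library totals too (-0.24, edgeR adjusted p = 0.0909), as was the WT call with VC (-0.10, edgeR adjusted p = 0.457).

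Cdk6 (chromosome 5, 3391485 to 3581008, plus strand), which shares its cyclins with Cdk4, moved the other way. In D/KO cells plus VC it read 38.8, 50.5 and 38.7 CPM at day 0, 72.1, 66.2 and 77.5 CPM at day 2 and 93.8, 85.0 and 72.4 CPM at day 4. In WT cells plus VC it read 44.6, 43.2 and 46.1 CPM at day 0 and 69.0, 64.3 and 76.2 CPM at day 4. Day 0 and day 4 did not overlap in either line. The log2 fold change on day 4 plus VC was 0.97 ± 0.13 in D/KO cells (edgeR adjusted p = 1.23e-07) and 0.65 ± 0.13 in WT cells (edgeR adjusted p = 0.000148). Without VC it was 0.57 ± 0.13 in WT cells (edgeR adjusted p = 0.00168) and 0.23 ± 0.13 in D/KO cells, which did not pass.

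Rb1 (chromosome 14, 73421113 to 73563262, minus strand), whose protein restrains E2F, rose in D/KO cells plus VC. It read 14.9, 16.8 and 20.1 CPM at day 0, 24.2, 28.3 and 26.7 CPM at day 2 and 38.9, 34.5 and 30.2 CPM at day 4, with no overlap between the 3 days. WT cells plus VC stayed between 13.01 and 17.3 CPM over the same days. The log2 fold change in D/KO cells was 0.61 ± 0.14 on day 2 (edgeR adjusted p = 0.000584) and 1.00 ± 0.14 on day 4 (edgeR adjusted p = 2.59e-07), against 0.11 and 0.12 in WT cells. The lines differed by 0.88 ± 0.20 on day 4 plus VC (edgeR adjusted p = 0.00113), and this call was kept without any 1 library and against day 0 without VC. The D/KO value on day 2 plus VC was 0.23 against day 0 without VC (edgeR adjusted p = 0.196). Without VC, D/KO day 4 was higher by 0.39 ± 0.14 (edgeR adjusted p = 0.0283), a call lost without D/KO day 0 replicate 1 (0.229) or D/KO day 4 replicate 1 (0.172), with no filter on low counts (0.0522) or with only the groups compared (0.0922). Exon bases shared with genes on the other strand made up 14.9% for Rb1, 17.4% for Ccne2 and 19.7% for Cdk4.

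E2f1 (chromosome 2, 154401327 to 154411812, minus strand), an activating E2F and itself a target of E2F, fell in 7 of the 8 comparisons with day 0. D/KO libraries read 51.7, 45.8 and 44.5 CPM at day 0, 34.4, 38.5 and 32.1 CPM at day 2 and 35.4, 36.2 and 29.3 CPM at day 4. With VC they read 64.8, 66.9 and 55.7 CPM at day 0, 33.8, 34.1 and 36.1 CPM at day 2 and 33.3, 32.8 and 36.6 CPM at day 4. Day 0 lay above both later days in both series, without overlap. The log2 fold changes in D/KO cells were -0.44 ± 0.11 on day 2 (edgeR adjusted p = 0.00179), -0.49 ± 0.11 on day 4, and with VC -0.85 ± 0.11 and -0.87 ± 0.11 (edgeR adjusted p = 1.2e-08). In WT cells they were 0.05 on day 2, -0.30 on day 4 (edgeR adjusted p = 0.0379), -0.43 on day 2 plus VC (edgeR adjusted p = 0.00209) and -0.51 on day 4 plus VC (edgeR adjusted p = 0.000156), and the first of these did not pass. Against day 0 without VC the WT values with VC were -0.17 (edgeR adjusted p = 0.225) and -0.25 (edgeR adjusted p = 0.0565). The WT day 4 call was lost without WT day 0 replicate 1, 2 or 3 or WT day 4 replicate 1 or 2 (0.0593 to 0.167), with library totals (0.0505) or with no filter (0.133), and the WT call on day 4 plus VC with library totals (-0.23, edgeR adjusted p = 0.0648).

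Counted over the 10 genes, 4 were called at D/KO day 2, where 27.4% of all genes tested were called, with 3 higher (14.3% of all genes) and 1 lower (13.2%). D/KO day 4 had 5 (37% of all genes), 3 higher (18.3%) and 2 lower (18.7%). D/KO cells with VC had 6 at day 2 (47.4%), 5 higher (23.8%) and 1 lower (23.6%), and 9 at day 4 (54.1%), 6 higher (27.9%) and 3 lower (26.2%). WT day 2 had 2 (10.6%), both higher (6.26%; lower 4.3%), and WT day 4 had 5 (24.5%), 3 higher (11.7%) and 2 lower (12.8%). WT cells with VC had 6 at day 2 (27.5%), 2 higher (13.8%) and 4 lower (13.7%), and 7 at day 4 (44.7%), 3 higher (22.7%) and 4 lower (22%). The directions of the WT counts with VC depended on baseline and scaling. Against day 0 without VC, 5 were higher and 0 lower at day 2 and 6 and 0 at day 4, and with library totals 4 and 2, and 6 and 1. In D/KO cells with VC the same baseline gave 6 and 1 at either day, and library totals gave 7 and 1 at either day. From day 2 to day 4 the counts were 1 in D/KO cells with 9.57% of all genes called, 1 plus VC with 15.6%, 6 in WT cells with 21.5% and 3 plus VC with 20.1%; the WT count of 6 was 0 without WT day 2 replicate 2. VC against no VC called 6, 3 and 4 of the 10 genes in D/KO cells at days 0, 2 and 4 (26.1%, 25.3% and 34.5% of all genes) and 6, 4 and 6 in WT cells (29.4%, 26.6% and 22.4%). The lines' changes differed for 2 genes at day 2 (6.54% of all genes), 4 at day 2 plus VC (13.9%), 1 at day 4 (14.3%) and 4 at day 4 plus VC (29.4%). The comparisons of day 2 and of day 4 with day 0 share, within a line and medium, the day 0 libraries. The fibroblast markers fell with reprogramming, from 96740 to 132700 CPM at D/KO day 0 to 42840 to 44730 CPM at day 4, and the summed keratinocyte markers in D/KO cells were higher at day 4 plus VC than at day 0 plus VC, as given above; the part of either in these differences was not tested.

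Before doxycycline the lines already differed at 6 of the 10 genes, where 43.2% of all genes were called, and all 6 were higher in D/KO cells, as were 22.1% of all genes (21.1% were lower). The log2 differences were 0.95 ± 0.12 for Ccne1 (edgeR adjusted p = 4.2e-08), 1.20 ± 0.32 for Ccne2 (edgeR adjusted p = 0.00224), 0.62 ± 0.13 for Cdk6, 0.52 ± 0.13 for Ccnd2, 0.49 ± 0.13 for Ccnd3 and 0.32 ± 0.12 for Cdk4. The Ccnd3 call was lost without D/KO day 0 replicate 3 (edgeR adjusted p = 0.0584), and the Cdk4 call without D/KO day 0 replicate 1 or 3 or WT day 0 replicate 1 or 3 (0.0563 to 0.114) and with library totals (0.12, edgeR adjusted p = 0.387). Of the S phase genes listed below, 12 were also called higher in D/KO cells at day 0 and 0 lower. With 1 library left out, 11 to 13 were called higher. Of the genes of G2 and mitosis listed there, 10 of 10 were called higher, also with 1 library left out. The endothelial markers differed between these groups as given above. The part of proliferation or of endothelial cells in the differences at the 6 genes was not tested.

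The genes around this machinery were read from lists of its inhibitors, its other E2Fs and pocket proteins, its activation and turnover, and its downstream genes. At day 4 plus VC in D/KO cells, 14 of 15 S phase genes and 10 of 10 genes of G2 and mitosis rose, with median log2 fold changes of 1.08 and 1.27 against 0.01 over all genes; of all genes 27.9% rose. Cdc6 (1.82 ± 0.32), which loads the replicative helicase, Mcm5 (1.79 ± 0.17), a part of that helicase, Ccna2 (1.66 ± 0.15), cyclin A2, and Cdt1 (1.56 ± 0.19) rose most in the former list, and Mki67 (2.31 ± 0.26), the proliferation marker, Cdc20 (1.73 ± 0.14), Top2a (1.58 ± 0.15) and Ccnb1 (1.43 ± 0.18) in the latter. Mki67 went from 20.6 to 102 CPM on average. On day 2 plus VC, 13 of the 15 and 5 of the 10 rose in D/KO cells, where 23.8% of all genes rose. Without VC, 9 of the 15 and 5 of the 10 rose on day 2 (14.3% of all genes rose); the 9 became 5 without D/KO day 2 replicate 3, and the 5 became 3 without D/KO day 0 replicate 2 or D/KO day 2 replicate 1 or 3. On day 4 without VC, 3 of the 15 and 0 of the 10 rose (18.3% of all genes), with medians of 0.11 and -0.07, and 6 of the 15 rose with library totals. From day 2 to day 4 without VC, 4 and 6 fell, where 5.07% of all genes fell and 4.5% rose, counts of 2 and 0 with only the groups compared and of as few as 1 and 0 with 1 library left out (D/KO day 2 replicate 3). On day 4 without VC the D/KO change exceeded the WT change for 3 of the 15 and 4 of the 10, where 7.27% of all genes were called higher and 7.04% lower. In WT cells without VC, 1 of the 15 rose and 2 fell by day 4 (1 without WT day 0 replicate 1 or 2 or WT day 4 replicate 1 or 3), and 0 of the 10 rose and 6 fell (medians -0.11 and -0.79; 12.8% of all genes fell), while 9 of the 10 fell from day 2 to day 4 (21.5% of all genes called in either direction). In WT cells at day 4 plus VC, 0 of the 15 rose and 7 fell, and 0 of the 10 rose and 9 fell, with medians of -0.37 and -1.17 against 0.03 over all genes, of which 22% fell. These WT values are read against a VC day 0 that was itself raised, and their direction turned with the baseline: against day 0 without VC, 11 of the 15 and 5 of the 10 rose and 0 fell. There VC alone called 13 of the 15 and 10 of the 10 higher, with medians of 1.38 and 2.00 against 0.00 over all genes, of which 15.1% were called higher and 14.4% lower. In D/KO cells at day 0 VC alone called 2 of the 15 and 2 of the 10 higher (2 to 4 and 1 to 2 with 1 library left out). Of all genes 12.1% were called higher there and 14% lower. The change in D/KO cells exceeded that in WT cells, both read against their VC day 0, for 15 of the 15 and 10 of the 10 (medians 1.45 and 2.35 against -0.01 over all genes, of which 13.9% were called higher and 15.5% lower). Read against day 0 without VC, it did so for 5 of the 15 and 4 of the 10. Mki67 means with VC were 22.4 CPM at day 0 and 18.4 CPM at day 4 in WT cells, against 5.53 CPM at WT day 0 without VC. The summed keratinocyte markers were higher beside these genes in D/KO cells at day 4 plus VC, as given above, and their part was not tested.

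Of 7 Cdk inhibitor genes, 5 fell and 0 rose in D/KO cells at day 4 plus VC (median -0.71), where 26.2% of all genes fell and 27.9% rose; against day 0 without VC, 3 fell and 2 rose. They were led by Cdkn1c (-2.77 ± 0.50), Cdkn2b (-1.48 ± 0.14), Cdkn2a (-1.12 ± 0.15) and Cdkn1b (-0.71 ± 0.13), whose proteins block cyclin-bound or free Cdks. Without VC on day 4, 1 of the 7 rose and 1 fell in D/KO cells, where 18.3% of all genes rose and 18.7% fell. Each of these counts ran from 1 to 2 with 1 library left out. Cdkn1a, p21, had a log2 fold change of -0.19 ± 0.10 in that comparison and did not pass. In WT cells at day 4 plus VC, 3 of the 7 fell (median -0.35, with 22% of all genes lower), a count of 1 without WT day 0 plus VC replicate 1 or WT day 4 plus VC replicate 3. Of the 11 other pocket proteins, E2Fs and partners, 6 rose and 1 fell in D/KO cells at day 4 plus VC (median 0.30, with 27.9% and 26.2% of all genes), or 10 and 0 with library totals. Among those that rose were E2f2 (2.65 ± 0.26), an activating E2F, the repressive E2f6 (1.15 ± 0.11) and E2f8 (1.09 ± 0.38), and Tfdp2 (0.63 ± 0.14), a partner of E2Fs. The pocket protein genes Rbl1 and Rbl2 had 0.09 ± 0.19 and 0.03 ± 0.14 in that comparison. In WT cells at day 4 plus VC, 6 of the 11 rose and 1 fell (22.7% and 22% of all genes), counts of 4 and 0 without WT day 0 plus VC replicate 3, WT day 4 plus VC replicate 1 or WT day 4 plus VC replicate 3. Of the 9 genes of kinase activation and cyclin turnover, 2 rose and 2 fell in D/KO cells at day 4 plus VC (median 0.12), a share in each direction below that of all genes. With library totals 6 rose and 0 fell. With TMM the count that rose was 1 without D/KO day 0 plus VC replicate 3 or D/KO day 4 plus VC replicate 2. The 4 called were Fbxo31 (0.56 ± 0.15) and Cks1b (0.46 ± 0.16), and Fbxw7 (-0.58 ± 0.17), which marks cyclin E for degradation, and Cdk7 (-0.38 ± 0.10), which activates Cdks.

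**Figure D4:**
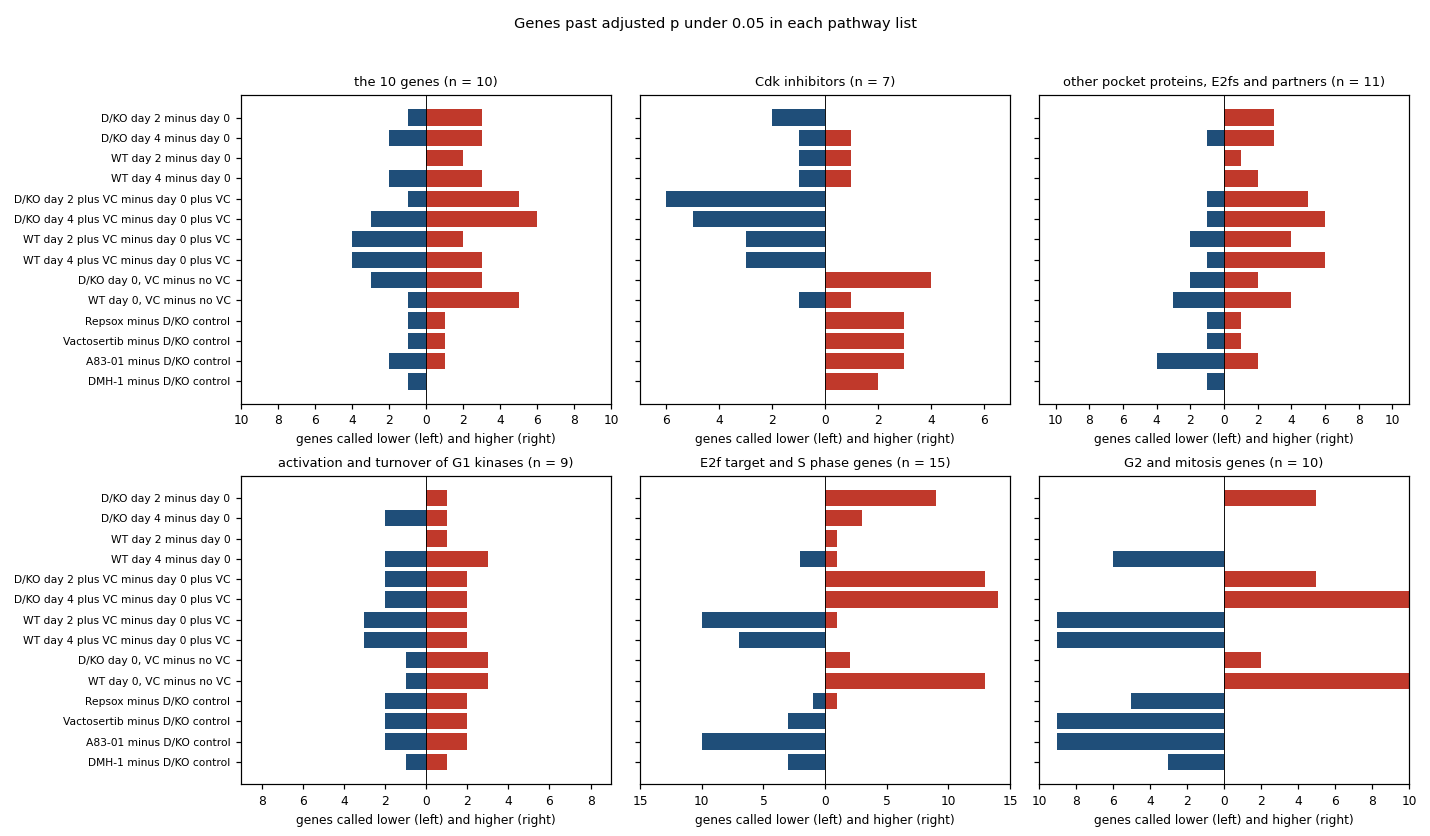
Number of genes called higher (red, to the right) and lower (blue, to the left) at edgeR adjusted p under 0.05 in each list, for 14 comparisons; each horizontal axis spans the number of genes in the list. In D/KO cells at day 4 plus VC all 10 genes of G2 and mitosis are higher, and with A83-01 9 of them are lower.

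In the inhibitor table the 2 genes that stood out were Ccnd1 and Ccne1, and they moved in opposite directions. Ccne1 read 19.9, 19.0 and 21.2 CPM in D/KO control cells, 5.98, 6.69 and 7.28 CPM with Repsox, 6.65, 7.90 and 9.61 CPM with Vactosertib and 5.998, 5.88 and 5.54 CPM with A83-01. With DMH-1 it read 12.4, 13.2 and 14.4 CPM. No treated library reached the control range, and the DMH-1 libraries lay between those of control and those of the other 3 compounds. The log2 fold change of Ccne1 was -1.59 with Repsox (SE 0.14, edgeR adjusted p = 3.32e-08), -1.32 with Vactosertib (SE 0.14, edgeR adjusted p = 5.68e-07), -1.79 with A83-01 (SE 0.14, edgeR adjusted p = 4.37e-09) and -0.59 with DMH-1 (SE 0.13, edgeR adjusted p = 0.00844). All 4 calls were kept without any 1 library, and with no filter on low counts the DMH-1 call was lost (edgeR adjusted p = 0.0543).

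Ccnd1 read 231, 255 and 271 CPM in control cells, 586, 353 and 595 CPM with Repsox, 477, 516 and 423 CPM with Vactosertib, 414, 559.5 and 528 CPM with A83-01 and 328, 335 and 280.4 CPM with DMH-1. All treated libraries lay above the control libraries, those with DMH-1 by the least. The log2 fold change was 1.02 ± 0.28 with Repsox (edgeR adjusted p = 0.0136), 0.90 ± 0.28 with Vactosertib (edgeR adjusted p = 0.031) and 0.99 ± 0.28 with A83-01 (edgeR adjusted p = 0.0121), and 0.32 with DMH-1 (95% interval -0.27 to 0.90, edgeR adjusted p = 0.638). Without Repsox replicate 2, which stood apart, the Repsox value was 1.22 for Ccnd1 and -1.60 for Ccne1, and both were still called. None of the 3 Ccnd1 calls held in every fit without 1 library. Repsox was lost without control replicate 1 (edgeR adjusted p = 0.0571) or Repsox replicate 1 (0.0543) or 3 (0.0572), Vactosertib without control replicate 1, 2 or 3 or Vactosertib replicate 1 or 2 (0.066 to 0.107), and A83-01 without control replicate 1 (0.0517). Per length, Ccnd1 held 39.2% ± 0.654 (SD, n = 3) of the D-type cyclin RNA in control cells, 52.9% with Repsox, 52.0% with Vactosertib, 52.3% with A83-01 and 43.5% with DMH-1.

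**Figure D5:**
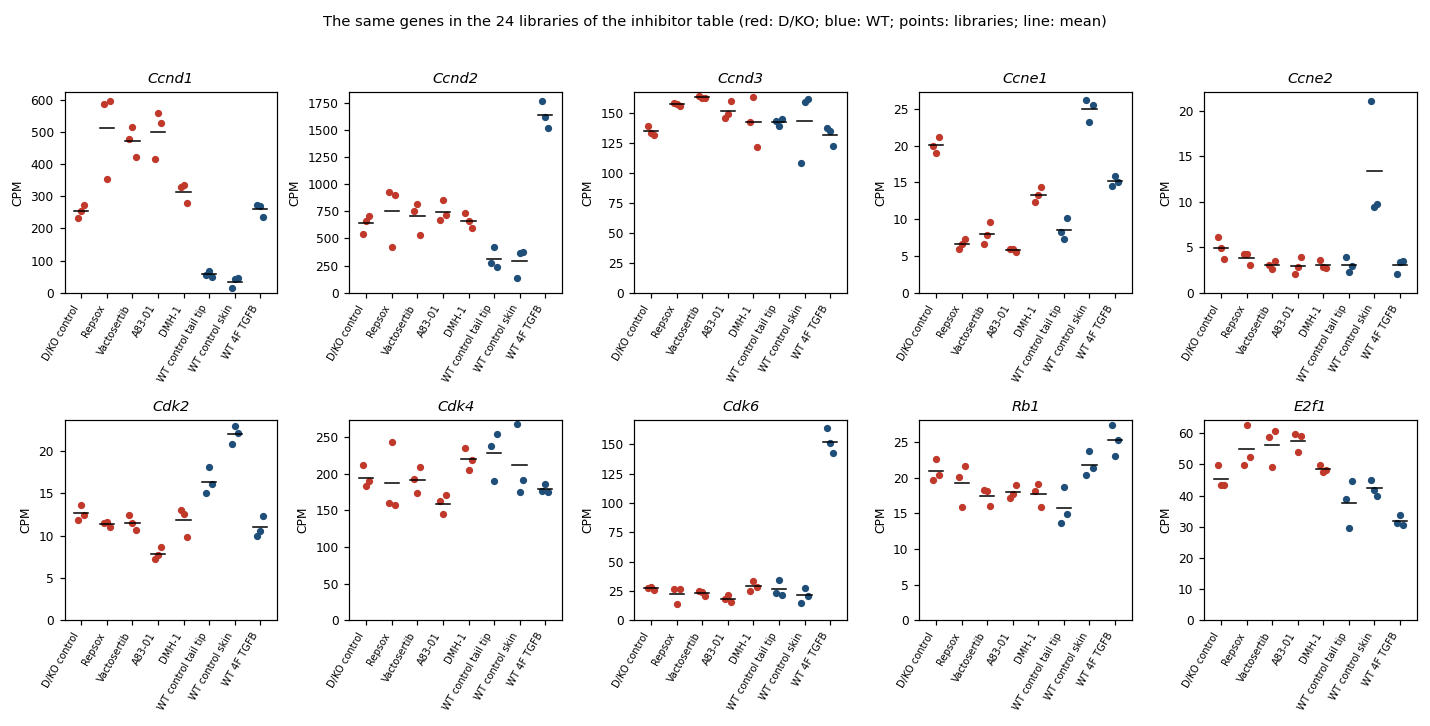
Level of each of the 10 genes (CPM, linear axis from 0) in the 24 libraries of the inhibitor table; points are libraries (red D/KO, blue WT) and short lines mark the mean of 3. Ccne1 is lower in all 12 inhibitor libraries than in the 3 D/KO control libraries, and Cdk6 is 142 to 163 CPM in the WT 4F TGFB group and at most 34.0 CPM elsewhere.

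Beside Ccnd1 and Ccne1, 1 further gene was called. Cdk2 read 11.9, 13.7 and 12.4 CPM in control cells and 7.27, 7.75 and 8.65 CPM with A83-01, and fell by 0.68 on the log2 scale (SE 0.13, edgeR adjusted p = 0.000286). So 2 of the 10 genes were called with Repsox (20.7% of all genes), 2 with Vactosertib (18.1%), 3 with A83-01 (27.5%) and 1 with DMH-1 (7.25%), in comparisons that share the control libraries. E2f1 was at 45.5 ± 3.73 CPM (SD, n = 3) in control cells and at 54.9, 56.3, 57.7 and 48.5 CPM on average with Repsox, Vactosertib, A83-01 and DMH-1, which did not pass. The A83-01 libraries, from 54.1 to 59.6 CPM, did not overlap those of control, and the log2 fold change of 0.34 (edgeR adjusted p = 0.05) was called without D/KO control replicate 1 (edgeR adjusted p = 0.045), and also in DESeq2, with its size factors, with library totals and with only the groups compared. Repsox replicate 2, which stood apart, had the lowest Ccnd2 (423 against 931 and 897 CPM) and Cdk6 (13.5 against 26.8 and 26.9 CPM) of its group and the highest Cdk4 (243 against 161 and 158 CPM). Fibroblast markers summed to 88850 to 100800 CPM in control cells and 47850 to 51450 CPM with A83-01, and endothelial markers to 239.6 to 288 and 106 to 143 CPM, and Schwann markers to 6.61 to 9.53 and 30.8 to 38.9 CPM. Their part in these differences was not tested.

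Compounds were compared in 2 pairs of equal dose, with p-values adjusted over all genes within each pair. A83-01, a TGFb receptor inhibitor, and DMH-1, a BMP receptor inhibitor, both at 1 µM, differed at 3 of the 10 genes (20.5% of all genes), with A83-01 lower, at -1.20 ± 0.14 for Ccne1 (edgeR adjusted p = 1.42e-06), -0.59 ± 0.13 for Cdk2 (edgeR adjusted p = 0.00168) and -0.46 ± 0.16 for Cdk4 (edgeR adjusted p = 0.0496) on the log2 scale. The Cdk4 call was lost without any 1 of the 6 libraries (0.0679 to 0.17), with library totals (0.126) and with no filter (0.0615). Ccnd1 was 0.67 higher with A83-01, which did not pass. Repsox and Vactosertib, both at 0.1 µM, of which the latter is also given as an ALK2 inhibitor, differed at 0 of the 10 genes and 0 of all genes in edgeR's test. At an unadjusted p under 0.05 edgeR gave 347 genes and 0 of the 10, and DESeq2 called 6 genes and 0 of the 10. The interval of the log2 difference was -0.47 to 0.70 for Ccnd1 and -0.56 to 0.01 for Ccne1.

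With A83-01, 10 of 15 S phase genes fell (median -0.75) and 9 of 10 genes of G2 and mitosis (median -1.84, against 0.00 over all genes, of which 13.9% fell and 13.6% rose), led by Cdc6 (-1.80 ± 0.39), Ccna2 (-1.61 ± 0.21) and Mcm5 (-1.42 ± 0.19), and by the mitotic kinase genes Bub1 (-2.30 ± 0.30) and Plk1 (-1.98 ± 0.26), Ccnb2 (-1.97 ± 0.30), cyclin B2, and Mki67 (-1.94 ± 0.40). Of the 7 Cdk inhibitor genes 3 rose, Cdkn1c (2.37 ± 0.36), Cdkn2b (0.93 ± 0.18), which TGFb signaling is known to induce, and Cdkn1a (0.43 ± 0.11), while Cdkn2a had 0.28 ± 0.30. Of the other E2Fs and pocket proteins 2 rose and 4 fell, the latter count being 2 without control replicate 3 or A83-01 replicate 1, with library totals or with no filter, with E2f2 at -1.10 ± 0.34, E2f3 at -0.80 ± 0.09 and Rbl2 at 0.75 ± 0.17; Rbl1, at -0.32 ± 0.14, did not pass. Fbxw7 rose (1.30 ± 0.10), and Skp2 (-1.16 ± 0.14), which marks p27 for degradation, and Cdc25a (-0.48 ± 0.13), a phosphatase that activates Cdk2, fell. With Vactosertib, 3 of the 15 (median -0.34) and 9 of the 10 (median -0.92) fell, where 8.7% of all genes fell and 9.37% rose; the 9 became 5 without D/KO control replicate 1 or Vactosertib replicate 2. With Repsox, 1 of the 15 fell and 1 rose (median -0.29), counts of 1 to 2 and 0 to 1 with 1 library left out. Of the 10, 5 fell (median -0.68), where 9.73% of all genes fell and 11% rose. The 5 became 2 without D/KO control replicate 1 or 3 or Repsox replicate 2, and 3 without Repsox replicate 3. That count was 2 with library totals or only the groups compared. With DMH-1, 3 of the 15 and 3 of the 10 fell (2.9% of all genes; 4.35% rose), and the latter count was 1 without D/KO control replicate 3 or DMH-1 replicate 1, 2 or 3, while DESeq2 called 6 and 6. Of 8 Wnt feedback genes, 7 rose and 0 fell with A83-01 (median 2.01), 6 rose with Repsox (median 1.91), 5 rose with Vactosertib (median 1.63) and 1 rose with DMH-1 (median 0.05), which is given because Ccnd1 is a known Wnt target. With VC alone at day 0, 4 of 9 rose and 1 fell in D/KO cells, where 12.1% of all genes rose and 14% fell, and 2 rose and 1 fell in WT cells, where 15.1% rose and 14.4% fell. Against day 0, 2 rose and 2 fell at D/KO day 2, and 4 and 1 at day 4. With VC these were 2 and 4, then 3 and 3. In WT cells they were 0 and 0, then 1 and 0, and with VC 1 and 2, then 2 and 1. The shares of all genes are given above, and some counts moved with 1 library left out. Any part of Wnt signaling in the Ccnd1 levels was not tested.

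The D/KO control cells of this table differed from WT tail tip cells at 5 of the 10 genes, where 34.6% of all genes were called. Ccnd1 read 55.6, 68.4 and 48.2 CPM in WT tail tip cells, against 231 to 271 CPM in D/KO cells, with a log2 fold change of 2.14 ± 0.29 between them (edgeR adjusted p = 6.61e-06), while Ccne1 was 1.22 ± 0.14 higher in D/KO cells (edgeR adjusted p = 3.77e-07). Without tail tip replicate 2, which stood apart, these values were 2.28 for Ccnd1 and 1.12 for Ccne1 and were still called. Ccnd2 (1.03 ± 0.31), Rb1 (0.41 ± 0.13) and Cdk2 (-0.37 ± 0.12) were called but lost without 1 library, without tail tip replicate 1 or 3 (edgeR adjusted p = 0.0584 and 0.0754) for Ccnd2, without those or D/KO control replicate 2 (0.0844 to 0.123) for Rb1, and without tail tip replicate 2 or D/KO control replicate 1 or 3 (0.0713 to 0.104) for Cdk2. With no filter Rb1 (0.0944) and Cdk2 (0.148) were not called, nor Rb1 with only the groups compared (0.0511) or Cdk2 with library totals (0.0518). WT skin cells differed from WT tail tip cells at 5 genes (34.2% of all genes). The largest differences were in Ccne1, which read 26.3, 23.2 and 25.5 CPM in skin and 8.31, 7.32 and 10.1 CPM in tail tip cells (log2 difference 1.54 ± 0.14, edgeR adjusted p = 1.95e-08), and Ccne2 (2.15 ± 0.32, edgeR adjusted p = 1.86e-05). Without skin replicate 1, which stood apart, these differences were 1.504 and 1.66 and were still called. Ccnd1 was 13.2, 41.9 and 45.04 CPM in skin cells, lowest in the replicate that stood apart, and its difference of -0.78 ± 0.29 was lost without skin replicate 1, at -0.40 (edgeR adjusted p = 0.099), or tail tip replicate 1 (0.0715) or 2 (0.142). Cdk2 (0.42 ± 0.12) and Rb1 (0.47 ± 0.13) were higher in skin cells, calls lost without tail tip replicate 1 (0.0631 and 0.0662), with library totals, with no filter and with only the groups compared (0.0531 to 0.132); the last also ended the Ccnd1 call (0.294).

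The WT 4F TGFB group has no matched control in its table and is given by its levels. Cdk6 read 163, 151 and 142 CPM, against 13.5 to 34.0 CPM in the other 21 libraries, and Ccnd2 read 1768, 1620.3 and 1515 CPM, against 134 to 931 CPM. Neither range overlapped that of any other group. Ccnd1, at 273, 269.8 and 237 CPM, made up 22.6% of its D-type cyclin RNA per length and Ccnd2 71.2%. Mki67 was at 2.26 CPM on average in that group and at 15.7 CPM in D/KO control cells.

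Genes whose mean level followed that of a member most closely over the 12 reprogramming groups were found by Pearson's r of log2 CPM, as a description over groups that share lines and media. For Ccnd1 they were Tspan15, Cmbl and Aida (r from 0.984 to 0.989), for Ccnd2 Naa25, Osbpl11 and Dock6, and for Ccnd3 Rflnb, Dap and Ninj1 (r from 0.961 to 0.982 for both). For Ccne1 they were Nans, Atp5mc1 and Tmem97, for Ccne2 Gm4353, Dck and Nsd2, for Cdk6 Dhx37, Nup160 and Kics2, and for Rb1 Ptprf, Cab39 and Ret, with r from 0.941 to 0.969. Such genes are not named for Cdk2, Cdk4 and E2f1, whose group means spanned less than 1 on the log2 scale.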

How the data were processed

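RNA of 60 fibroblast libraries was measured by the authors with paired-end polyA sequencing. Per the labels and methods, reads were trimmed with Trim Galore, checked with FastQC, aligned to GRCm39 with HISAT2 and counted per gene with featureCounts; tool versions and the strand setting are not given in the sources used here. The deposited values are raw read counts per gene in 2 tables, with gene lengths; 0 columns of samples were left unmapped. Symbols came from GENCODE M39 (98.7% of gene IDs found).

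Counts were fitted per table in edgeR 4.0.16 (R 4.3.3, limma 3.58.1) with TMM scaling, filterByExpr (minimum count 10, minimum total 15) and 1 coefficient per group, over 36 and 24 libraries; 15832 and 15652 genes were tested, with the Benjamini-Hochberg adjustment made separately in each of 31 comparisons. SE is the log2 fold change divided by the square root of F. The fits were tested on simulated data. Alternatives were DESeq2 1.42.0, its size factors, library totals, no filter, only the groups compared, day 0 without VC as baseline, 18 inhibitor libraries and each library left out; the list counts under these settings were added after seeing the data. The tables were normalized separately and are compared only within themselves; shares set across them are side by side. The median library held 17323726.5 and 24338296 counts. All 10 genes are named. Of each list, up to 4 genes with the largest change among those called at D/KO day 4 plus VC, up to 3 with A83-01, and Cdkn1a, Cdkn2a, Cdkn2b, Rbl1, Rbl2 and Mki67 are named. The members and lists were chosen with earlier results of these data known. Inhibitor doses and times, and those of doxycycline and VC, are from the study's methods.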

Additional observations from a re-analysis of the deposited data

Results flagged for a closer look

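Between D/KO and WT cells, the change from day 0 differed by the edgeR test of the difference itself for 11 pairs of gene and time. Genotype, sex, age, line and any difference in cassette or background cannot be told apart in any of them. Without VC, the log2 change in D/KO minus that in WT cells was 1.06 for Ccnd1 at day 2, 0.89 for Ccnd1 at day 4 and -0.49 for E2f1 at day 2. The Ccnd1 values kept their call without any 1 library. The E2f1 call (edgeR adjusted p = 0.0429) was lost without D/KO day 0 replicate 1, D/KO day 2 replicate 1 or 3, WT day 0 replicate 1, 2 or 3, or WT day 2 replicate 2 or 3 (0.0532 to 0.164), with library totals (0.128), with no filter on low counts (0.162) or with only the groups compared (0.107).

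With VC at day 2 the difference was 0.62 for Ccnd1, 0.62 for Ccnd2, 0.59 for Ccne1 and 1.98 for Ccne2. The Ccnd2 call was lost without D/KO day 0 plus VC replicate 1, WT day 0 plus VC replicate 3, or WT day 2 plus VC replicate 1 or 2 (edgeR adjusted p from 0.0521 to 0.059), and the Ccne1 call without WT day 0 plus VC replicate 3 (0.052) or with no filter (0.0818). The Ccnd1 call was lost with only the groups compared (0.0551). With VC at day 4 it was 0.42 for Ccnd1, 0.60 for Ccnd3, 1.82 for Ccne2 and 0.88 for Rb1. The Ccnd3 call (edgeR adjusted p = 0.015) was lost without D/KO day 0 plus VC replicate 1 or 3 or D/KO day 4 plus VC replicate 2 (0.0543 to 0.0644). Read against day 0 without VC, Rb1 was the 1 of these VC differences that passed.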

How the results depend on the processing

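No paired analysis was possible because the labels number the libraries consecutively and the groups compared share no replicate numbers. Of 122 calls on the 10 genes, 77 were kept without any 1 library. With library totals in place of TMM the median log2 change over all genes lay between -0.29 and 0.377, depending on the comparison; it was not subtracted from the values given for that scaling.

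Counts of the 10 genes called moved by over 1.5 times as follows; the cause was not tested. From day 2 plus VC to day 4 plus VC in D/KO cells, 1 became 2 with DESeq2 or its size factors and 3 with library totals. For the difference between lines, 2 became 1 at day 2 with library totals, no filter or only the groups compared, 1 became 2 at day 4 with library totals or no filter, and with VC 4 became 7 at day 2 with library totals. With day 0 without VC as baseline, 4 became 1 at day 2 and 1 at day 4. The VC effect in D/KO cells at day 2 went from 3 to 5 with only the groups compared. With library totals the counts were 4 for Repsox, 4 for Vactosertib, 5 for A83-01 and 3 for skin against tail tip cells. With only the groups compared they were 4 for Vactosertib, 7 for A83-01, 5 for A83-01 against DMH-1 (also 5 with 18 libraries) and 2 for skin. With no filter they were 0 for DMH-1, 3 for skin and 3 for D/KO control against tail tip cells.

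With 1 library left out, counts ran from 1 to 3 (difference between lines, day 2), 1 to 2 (day 4), 2 to 6 (day 2 plus VC) and 2 to 4 (day 4 plus VC), from 1 to 2 for D/KO day 2 to day 4 plus VC, 1 to 2 for WT day 2, 3 to 4 for WT day 4, 3 to 6 for the VC effect at WT day 0, 0 to 6 for WT day 2 to day 4, 1 to 3 for the same plus VC, 3 to 4 for D/KO control against tail tip, 2 to 5 for skin against tail tip, and 1 to 2 each for Repsox and Vactosertib.

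Directions turned with day 0 without VC as baseline for Cdk2 at D/KO day 2 plus VC (0.54), Ccne1 at D/KO day 4 plus VC (0.062) and, in WT cells with VC, for Ccne1 (0.74 at day 2, 0.38 at day 4), Cdk4 (0.31 at day 2, 0.13 at day 4) and Ccne2 (0.03 at day 4), and with library totals for Cdk4 at D/KO day 4 plus VC (0.009). By counts without length scaling Ccnd1 held 29.8% of D-type cyclin RNA at D/KO day 0 and 61.3% at day 4. Depth limits Ccne2 most, which was read from as few as 14 counts.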
